A study of Mus musculus with 27 samples.

Results

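The suprachiasmatic nucleus (SCN) of the mouse, the paired hypothalamic nucleus that holds the central circadian clock of the brain, was sampled over almost 2 days for small-RNA sequencing. The libraries described here are 10 of the 27 in the series. They form 5 pairs taken 24 h apart: ZT2 with ZT26, ZT6 with ZT30, ZT10 with ZT34, ZT14 with ZT38 and ZT18 with ZT42. ZT is zeitgeber time, counted in hours from lights on. The earlier 5 libraries are called the first cycle and the later 5 the second. An 11th library of the course, ZT22, has no partner 24 h later and is not among the 10. It entered only 2 alternative fits over 11 libraries. All 10 libraries came from C57BL/6 mice with no genotype or treatment named, so every group carries the same background. Each time is 1 library. The labels name neither the light schedule, nor the age and sex of the mice, nor how many SCN were pooled, nor whether the second day was run as a batch of its own. The p-values below therefore measure only the spread between these libraries, and a day, a batch and the animals taken on that day cannot be told apart.

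miRNAs are short RNAs, cut from hairpin precursors, that guide Argonaute proteins to target mRNAs mainly by pairing through bases 2 to 8, the seed. Mature miRNAs are usually long-lived. In the SCN, miR-132 and miR-219 are known as modulators of light responses and period length, and several other miRNAs have been linked to clock genes. Pairing libraries 24 h apart asks how far the levels returned at the same clock time and whether any miRNA differed between days.

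A total of 353 miRNAs had a level of at least 100 in at least 3 of the 10 libraries. These 353 are all that was compared, out of 751 listed above 0 in the 10 libraries and 844 in the whole series. A level here is the deposited value, reads per miRNA scaled to about 10000000 in each library, so that a level of 10 corresponds to 1 CPM (reads scaled to the library total). The 353 held 99.93% to 99.97% of the value in every library, none was at 0 in any library, and 269 reached 100 in all 10. Just outside the minimum lay 11 miRNAs with 2 libraries at 100, whose means ran from 62.5 to 89.8, and just inside lay 17 with 3 such libraries and means from 58.8 to 118. The step between low values gave a depth of about 2610482 (ZT10) to 5132664 (ZT26) reads, at which 3 reads correspond to a level of 5.85 to 11.51. The 10 most abundant miRNAs took 62.6% to 72.0% of each library. Brain identity was plain in all 10: the neuronal miR-124-3p lay at 248164 to 481587 and miR-7a-5p, abundant in hypothalamus and endocrine cells, at 90003 to 403370, against 80 to 468 for the liver miRNA miR-122-5p. Since the tissue was sampled in bulk, fewer cells of a type and less RNA per cell cannot be told apart in any value below.

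The sequences below are those of the miRNAs on which the comparison turned, and they show which of them share a seed and so, potentially, targets. They are RefSeq mature sequences (assembly GRCm38.p6), written from 5′ to 3′ with bases 2 to 8 in capitals. Of the 353 miRNAs, 301 matched a RefSeq mature sequence by name.

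miR-10b-5p, with the smallest p of all, and miR-10a-5p, both higher in the second cycle, share the seed ACCCUGU:
miR-10a-5p: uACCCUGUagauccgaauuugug
miR-10b-5p: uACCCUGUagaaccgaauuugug

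The sensory cluster, named for its expression in retina, inner ear and other sense organs, has closely related seeds:
miR-183-5p: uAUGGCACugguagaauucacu
miR-96-5p: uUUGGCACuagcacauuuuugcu
miR-182-5p: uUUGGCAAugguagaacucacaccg

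Seeds of the miRNAs with the smallest p among those that were lower in the second cycle were shared by miR-34b-3p with miR-34c-3p, by miR-222-3p with miR-221-3p and by miR-132-3p with miR-212-3p:
miR-34b-3p: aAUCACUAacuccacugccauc
miR-34c-3p: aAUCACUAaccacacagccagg
miR-222-3p: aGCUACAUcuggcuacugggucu
miR-221-3p: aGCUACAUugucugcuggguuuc
miR-132-3p: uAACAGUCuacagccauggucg
miR-212-3p: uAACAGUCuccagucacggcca
miR-139-5p: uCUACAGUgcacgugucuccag
miR-7a-2-3p: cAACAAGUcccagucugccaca

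Members of the let-7 family, which all carry the seed GAGGUAG, and of the miR-99 and miR-100 group, with the seed ACCCGUA, lay on opposite sides of zero as groups:
let-7b-5p: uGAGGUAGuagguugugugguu
let-7d-5p: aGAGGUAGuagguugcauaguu
let-7e-5p: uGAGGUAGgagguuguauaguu
miR-99a-5p: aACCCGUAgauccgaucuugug
miR-99b-5p: cACCCGUAgaaccgaccuugcg
miR-100-5p: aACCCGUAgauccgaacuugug

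Within these families the mature forms can be almost identical. miR-10b-5p differs from miR-10a-5p by U12A, counted from the 5′ end with the base of miR-10a-5p given before the position, miR-100-5p differs from miR-99a-5p by U16A, and let-7e-5p differs from let-7a-5p by U9G. How reads were divided between such copies is not given in the sources used here, so values of close relatives are uncertain to that extent.

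No miRNA passed the threshold between cycles. Of the 353, 0 (0%) had an adjusted p under 0.05 (limma on log2(level + 1), with time of day as a block and Benjamini-Hochberg adjustment). The smallest adjusted p was 0.0799, that of miR-10b-5p, and the next was 0.133, that of miR-34b-3p. Before adjustment 47 miRNAs (13.3%) had p under 0.05, of which 7 (1.98%) were higher in the second cycle and 40 (11.3%) lower. The mean log2 difference was positive for 117 and negative for 236, with a median of -0.16. That shift depended on scaling: dividing by median-ratio factors moved the median by 0.17 to 0.02, and quantile normalization moved it to 0.01. Both methods bring the libraries to a common centre over these same miRNAs. A median near 0 is therefore set by the method and cannot show which scale is right. The lean towards lower values went with it: median-ratio scaling gave 27 higher and 31 lower miRNAs at unadjusted p under 0.05, quantile normalization 27 and 26, and the deposited scale without the ZT2 and ZT26 pair 21 and 26. Without each other pair the lean stayed, with 2 higher and 10 lower without ZT6 and ZT30, 8 and 20 without ZT10 and ZT34, 3 and 35 without ZT14 and ZT38, and 7 and 56 without ZT18 and ZT42. The 47 thus became 12 without the ZT6 and ZT30 pair and 28 without the ZT10 and ZT34 pair. A difference of the same sign in all 5 pairs was seen for 10 miRNAs that were higher (2.83%) and 29 that were lower (8.22%). The cycles did not overlap at all for 12 miRNAs (3.4%), 1 of them higher and 11 lower. The exact sign-flip test over 5 pairs cannot give a two-sided p below 0.0625, which every miRNA with 5 of 5 pairs in 1 direction reached, so it could not pass 0.05.

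The precision behind these counts was limited. The standard error of the cycle difference had a median of 0.29 on the log2 scale, and the SD of the 5 pair differences a median of 0.66. The mean of the 5 log2 pair differences was beyond 2-fold for 15 of the 353 miRNAs. The level of a typical miRNA spanned a 2.8-fold range over the 10 libraries.

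miR-10b-5p, a miRNA of the Hox clusters that is better known from spinal cord and hindbrain than from forebrain, had the smallest p between cycles. Its levels in the first cycle were 288 at ZT2, 196 at ZT6, 272 at ZT10, 191 at ZT14 and 263 at ZT18. In the second cycle they were 791 at ZT26, 698 at ZT30, 627 at ZT34, 990 at ZT38 and 460 at ZT42. All 5 later libraries stood above all 5 earlier ones, with a mean of 713 ± 197 against 242 ± 45.2, a 2.95-fold ratio. For mean levels, here and below, ± gives the SD of n = 5 libraries in each cycle. The log2 difference was 1.53 ± 0.29 (SE, limma adjusted p = 0.0799). For log2 differences, here and below, ± gives the SE from limma and not the SD of the pairs. This miRNA was past the threshold after median-ratio scaling (1.71, limma adjusted p = 0.00963), and without the ZT6 and ZT30 pair the adjusted p was 0.565 (limma) with a difference of 1.46. The unpaired ZT22 library, taken before ZT26, read 735, inside the range of the second cycle. The hairpin lies on chromosome 2 at 74726070 to 74726137, plus strand, within introns of Hoxd3 and Hoxd4 (GRCm38).

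Its sister miR-10a-5p, from the Hoxb cluster region on chromosome 11 (96317165 to 96317274, plus strand, in no annotated host gene), was higher in the second cycle in all 5 pairs as well. The levels were 984, 621, 791, 368 and 646 at ZT2, ZT6, ZT10, ZT14 and ZT18, and 1343, 953, 864, 1058 and 1090 at the partner times. The cycles overlapped, because ZT2 was above ZT30 and ZT34. The mean ratio was 1.56 and the log2 difference 0.69 ± 0.26 (SE, limma adjusted p = 0.294).

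The sensory cluster on chromosome 6, where the hairpins of miR-183 (30169668 to 30169737), miR-96 (30169446 to 30169551) and miR-182 (30165918 to 30165992) lie on the minus strand, was also higher. miR-183-5p stood at 540, 215, 338, 1208 and 466 in the first cycle and at 780, 1479, 393, 2060 and 860 in the second. Each partner was higher, though by very unequal steps, and the cycles overlapped. The log2 difference was 1.03 ± 0.35 (SE, limma adjusted p = 0.294), of which the ZT30 and ZT6 pair alone gave 2.78. miR-182-5p followed with 338, 153, 242, 663 and 211 against 499, 736, 196, 1392 and 482, higher in 4 of 5 pairs (0.95 ± 0.35). miR-96-5p lay at 82 to 405 against 128 to 810, higher in 3 of 5. The passenger strand miR-182-3p, also on the list, was at 0 in 9 of the 10 libraries.

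The same cluster held the smallest p for time of day. Summed over its 3 guide strands the level was 1106, 452, 768, 2276 and 759 in the first cycle and 1407, 2919, 717, 4262 and 1667 in the second, so that both cycles had their highest value at ZT14 and ZT38. The epithelial miR-200a-3p, which represses Zeb1 and Zeb2, ran beside it, with 112, 71, 84, 309 and 40 against 138, 417, 32, 566 and 152. Its relative miR-141-3p, of the same seed, read 3 at ZT6 against 226 at ZT30, where 3 is a level no higher than 1 read. Of the other tested relatives, miR-200c-3p was highest at ZT14 and ZT38 too, though low (110 and 169). miR-200b-3p was not high at ZT14 (58, against 89 at ZT2) but read 329 at ZT38. Its p for time of day was 0.759 (limma moderated F, unadjusted). Whether cells rich in both miRNA groups were dissected to a differing extent was not tested.

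**Figure D1:**
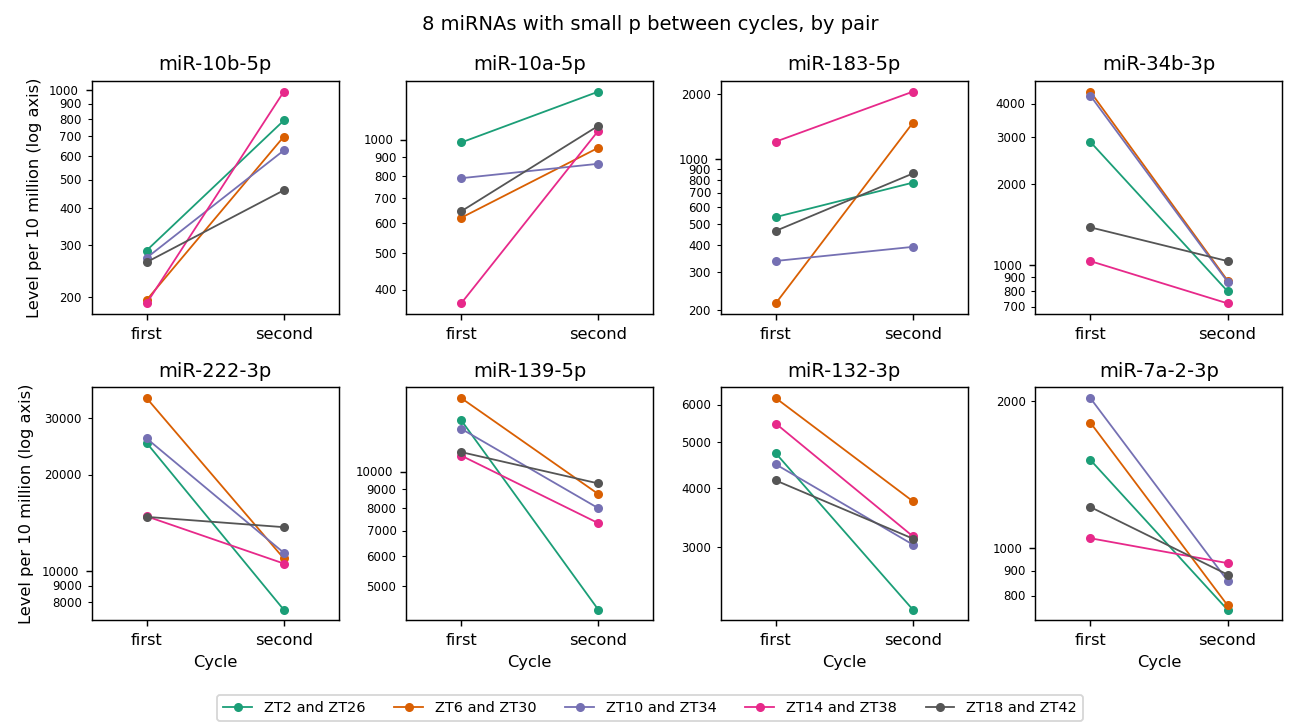
Level (vertical log axis) of 8 miRNAs in the first and second cycle. Each line joins 2 libraries taken 24 h apart, coloured by pair, with 1 library per point and no error bar. For miR-10b-5p all points of the second cycle (460 to 990) lie above those of the first (191 to 288), while for miR-34b-3p and miR-222-3p the lines of the earliest 3 pairs are steep and those of the later pairs shallow.

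Among the miRNAs that were lower, miR-34b-3p came first. It is made from the miR-34b and miR-34c transcript, a p53 target that is also abundant in cells with motile cilia, at chromosome 9, 51103562 to 51103645, minus strand, opposite to an intron of Btg4. Its levels were 2881, 4435, 4286, 1035 and 1383 at ZT2 to ZT18 and 799, 876, 867, 720 and 1035 at ZT26 to ZT42. The earliest 3 libraries were high and the other 7 lay at 720 to 1383. The mean of the second cycle was 3.26-fold lower (859 ± 117 against 2804 ± 1582), with a wide spread in the first. The log2 difference was -1.49 ± 0.33 (SE, limma adjusted p = 0.133, and 0.0487 after median-ratio scaling). The cycles met at 1035, the value of both ZT14 and ZT42.

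The neighbouring hairpin gave an uneven picture. miR-34c-3p, with the seed of miR-34b-3p, was lower in 5 of 5 pairs, at 560, 431, 330, 276 and 191 against 138, 181, 244, 164 and 181 (-0.90 ± 0.34, limma adjusted p = 0.294). miR-34c-5p, the guide strand from the same hairpin and the more abundant product, was among the steadiest miRNAs of all, at 10424, 9458, 7338, 7523 and 7926 against 9628, 7595, 7361, 7272 and 8418 (-0.08 ± 0.20). All 5 tested miRNAs of the choroid plexus and ciliated-cell list had a lower mean in the second cycle, against 236 of all 353. After median-ratio scaling 4 of 5 did, miR-34c-5p turning to 0.098. Of the 5, 3 are these, and both strands of miR-204 and of miR-34c are on the list, so the 5 are not separate observations. The list's summed level was 47052 to 61089 against 36566 to 47859. The defining choroid miRNA miR-204-5p stood at 25929 to 46964 with a difference of -0.28 ± 0.20, and the cilia miRNA miR-449a-5p was at 0 in 8 libraries and at most 6 elsewhere. The part of these cells in the miR-34b-3p values was not tested.

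miR-222-3p, which shares its seed with miR-221-3p and is known to repress p27 and Kit, had the next smallest p. It read 25161, 34721, 25974, 14836 and 14777 in the first cycle and 7574, 10956, 11415, 10563 and 13721 in the second, with no overlap. The difference was again wider in the earliest 3 pairs, at -1.73, -1.66 and -1.19, than in the later pairs, at -0.49 and -0.11. The mean was 2.13-fold lower and the log2 difference -1.04 ± 0.26 (SE, limma adjusted p = 0.261). miR-221-3p, from the same X-linked region, had a difference of -0.77 ± 0.30 and was lower in 4 of 5 pairs, at 2164 to 6629 against 1886 to 2606. Of the opposite strands, miR-222-5p was lower in 4 of 5 pairs and 1.91 higher in the ZT18 and ZT42 pair (28 to 108), a mean of -0.13 ± 0.55. miR-221-5p was higher in 3 of 5 (0.28 ± 0.22).

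miR-139-5p, encoded in an intron of Pde2a on chromosome 7 (101475376 to 101475443, plus strand), did not overlap between cycles either. Its levels were 13651, 15606, 12962, 11019 and 11254 against 4334, 8727, 8012, 7318 and 9309, 1.71-fold lower (-0.81 ± 0.23, limma adjusted p = 0.294). The opposite strand miR-139-3p did not overlap either and stood at 800 to 1761 against 617 to 772 (-0.74 ± 0.26).

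miR-132-3p, induced by CREB with neuronal activity and in the SCN by light, is the miRNA of this set best known in the SCN. Its levels were 4742, 6200, 4493, 5478 and 4154 in the first cycle and 2215, 3753, 3040, 3165 and 3130 in the second, with no overlap and a fairly even step in each pair (-1.10, -0.72, -0.56, -0.79 and -0.41). The mean was 3061 ± 550 against 5013 ± 823, 1.64-fold lower (-0.72 ± 0.21, limma adjusted p = 0.294). miR-212-3p comes from the same transcript and has the same seed, with the hairpins at 75173682 to 75173747 (miR-132) and 75173388 to 75173478 (miR-212) of chromosome 11. It was lower in only 3 of 5 pairs, with 1737, 1830, 1114, 1665 and 1255 against 669, 1259, 1121, 1276 and 1342 (-0.44 ± 0.26). The opposite strands did not follow miR-132-3p closely. miR-212-5p, far more abundant at 44667 to 66111, was higher in 3 of 5 pairs (0.09 ± 0.18). miR-132-5p, at 222 to 687, was lower in 3 of 5 (-0.39 ± 0.31). Of the 8 tested miRNAs regulated by light or activity, 1 had p under 0.05 and was lower, 5 had a lower and 3 a higher mean, near the 11.3% and the 236 of 353 over all miRNAs, and the list's median was -0.28, against -0.16 over all 353.

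miR-7a-2-3p, the passenger strand of a miR-7 hairpin on chromosome 7 (78888277 to 78888373, plus strand), read 1517, 1808, 2029, 1049 and 1215 against 749, 765, 859, 933 and 884. The cycles did not overlap, and the difference was -0.82 ± 0.25 (limma adjusted p = 0.294). The guide strand miR-7a-5p, shared by 2 hairpins and among the 10 most abundant miRNAs, was far less regular: 403370, 263714, 130771, 100002 and 115569 against 153811, 119420, 90003, 126899 and 159062. It was lower in the earliest 3 pairs and higher in the later 2, so its mean difference of -0.45 ± 0.27 joined opposite signs. miR-7b-5p had the same signs in the same pairs, from -1.25 in the earliest to 0.51 in the latest. miR-375-3p, an islet and pituitary miRNA, was lower in 5 of 5 pairs at 217 to 622 against 121 to 241 (-0.88 ± 0.37).

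The other miRNAs whose cycles did not overlap were all lower in the second. From the imprinted Dlk1-Dio3 region these were miR-323-3p (865 to 1846 against 487 to 774), miR-329-3p (1521 to 1652 against 884 to 1166), miR-434-3p (211778 to 274704 against 181816 to 202860) and miR-494-3p (180 to 222 against 83 to 149). miR-106b-3p, from an intron of Mcm7, and miR-320-3p completed the set, at 226 to 477 against 122 to 203 and at 2641 to 2976 against 1168 to 2471. miR-329-3p had the smallest spread of these within the first cycle, 1594 ± 47.1 against 1052 ± 108 (-0.60 ± 0.22). For 10 of the 12 non-overlapping miRNAs the unpaired ZT22 library fell inside the second-cycle range and for 0 inside the first-cycle range. The exceptions were miR-329-3p, at 1252 between both ranges, and miR-434-3p, at 165833 below both. By these miRNAs ZT22 stood with the later libraries, although its label places it in the first 24 h. They were picked from the same data because their cycles did not overlap. A matching count for ZT22 over all miRNAs was not made, so its place in general is not known from them.

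The 5 pairs differed from one another in the size and direction of their differences. In the ZT2 and ZT26 pair the median difference of the 353 miRNAs was -0.71 and the median absolute difference 0.79, with 4 miRNAs (1.13%) more than 2-fold higher and 135 (38.2%) more than 2-fold lower. For ZT6 and ZT30 the median was -0.14 and the median absolute difference 0.55, with 28 (7.93%) higher and 56 (15.9%) lower. For ZT10 and ZT34 the values were 0.0 and 0.53, with 36 (10.2%) and 48 (13.6%). For ZT14 and ZT38 they were -0.15 and 0.37, with 13 (3.68%) and 30 (8.5%). The ZT18 and ZT42 pair was the closest, at 0.14 and 0.26, with 30 (8.5%) higher and 3 (0.85%) lower. The SD from counting, set by the approximate depths, had a median of 0.105 to 0.134 on the log2 scale per pair, and 60.1% to 87.0% of the miRNAs differed by more than 2 such SDs. These pair values have no replicate and no test.

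**Figure D2:**
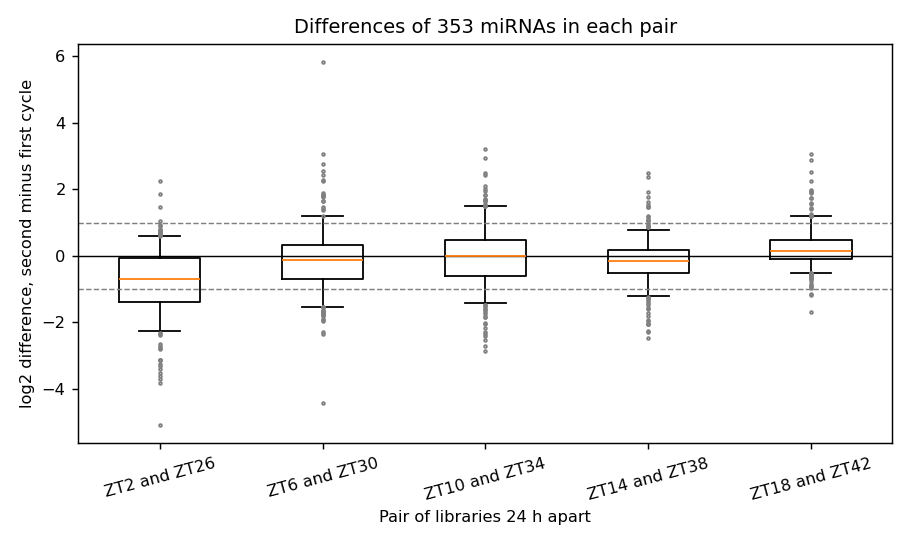
Log2 difference, second minus first cycle, of 353 miRNAs in each of the 5 pairs of libraries. Boxes show the quartiles and median, whiskers the 5th and 95th percentile, points the miRNAs beyond, and dashed lines mark 2-fold. The ZT2 and ZT26 box lies lowest (median -0.71) and the ZT18 and ZT42 box is the narrowest (median absolute difference 0.26).

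The leading miRNAs mostly changed from pair to pair, while miR-34b-3p led the lower side in 2 of them. Between ZT2 and ZT26 the widest differences among miRNAs with a mean of at least 500 were those of miR-708-5p (1155 to 81), miR-331-3p (858 to 171) and miR-369-3p (5910 to 1223) downwards and of miR-541-5p (58596 to 111965), miR-423-5p (2859 to 5299) and miR-151-3p (6757 to 11734) upwards. The 3 downward differences were beyond 2-fold and the 3 upward ones were not, and in the other pairs none of these 6 was more than 2-fold apart in the same direction. Between ZT6 and ZT30 the widest were miR-34b-3p, miR-323-3p and let-7d-3p (14791 to 3950) downwards and miR-183-5p, miR-15b-5p (246 to 883) and miR-153-3p (1265 to 4406) upwards. Between ZT10 and ZT34 miR-34b-3p, let-7e-5p and miR-1198-5p (1429 to 463) were the lowest and miR-145a-5p (745 to 2972), miR-3072-3p (468 to 1512) and miR-3102-3p (1130 to 3600) the highest.

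The later pairs were led by others. Between ZT14 and ZT38 these were miR-29c-3p (994 to 300), miR-218-5p (2814 to 1410) and miR-673-5p (817 to 410) downwards, and miR-10a-5p, miR-374b-5p (1061 to 2240) and miR-335-5p (24790 to 46569) upwards. Between ZT18 and ZT42 they were miR-344d-3p (3111 to 1915), miR-344d-3-5p (769 to 513) and miR-92b-3p (26270 to 18002) downwards, and miR-135a-5p (3053 to 6588), miR-544-5p (1158 to 2455) and miR-145a-3p (503 to 1059) upwards. Signs could turn between pairs. miR-153-3p had differences of -1.66, 1.80, 1.56, -0.53 and 1.02 from the earliest to the latest pair, and miR-338-3p, an oligodendrocyte miRNA outside this ranking, had -1.12, 1.14, 0.97, 0.09 and 0.70.

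Libraries taken 24 h apart were not the most alike. Over log2 levels of the 353 miRNAs, Pearson's r within the 5 pairs was 0.962, 0.958, 0.963, 0.980 and 0.986 in order of time (across miRNAs, which are not independent replicates). For 0 of the 10 libraries was the 24 h partner the most similar of the other 9, and for 4 of them (ZT2, ZT6, ZT30 and ZT34) it was the least similar. ZT2 and ZT6 were most like each other (0.983), and ZT10 was most like ZT6 (0.982). ZT2 stood nearer to ZT42 (0.982) than to ZT10 (0.975). ZT14, ZT30, ZT34 and ZT38 were each most like ZT42, with r from 0.985 to 0.990, and 8 of the 10 libraries were most like a library of their own cycle. Neighbours 4 h apart had a median r of 0.979 (8 pairs of libraries), against 0.963 for those 24 h apart (5 pairs). Libraries 12 h apart, at opposite clock times, had 0.978 (6 pairs), and the 1 pair 40 h apart had 0.982. Likeness thus did not fall steadily with the time between libraries. ZT26 had the lowest mean r with the rest, 0.967, only just below ZT10 (0.968) and ZT6 (0.97), and ZT42 the highest, 0.981.

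**Figure D3:**
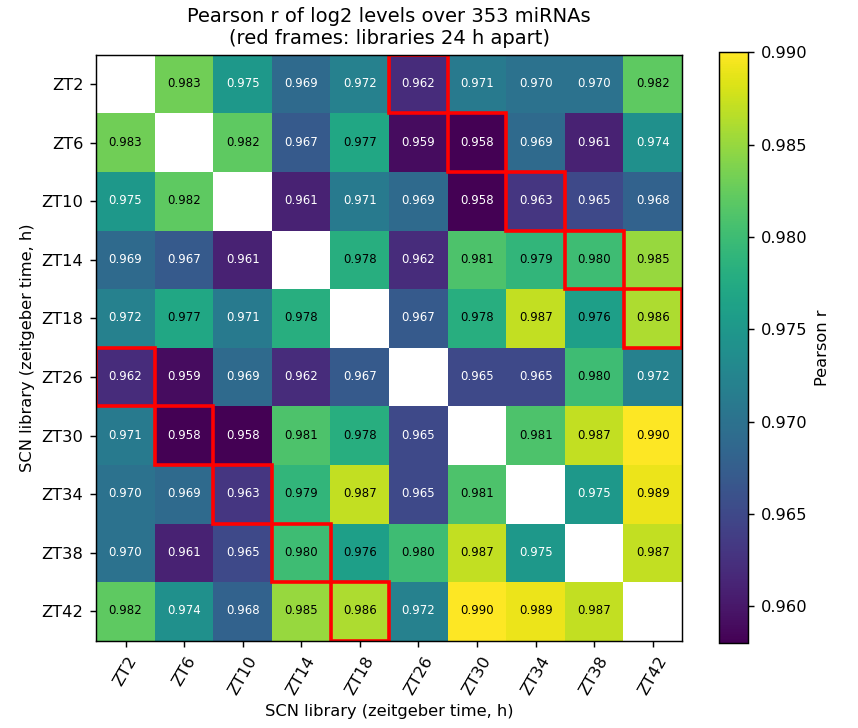
Pearson's r of log2 levels between each 2 of the 10 SCN libraries (both axes, zeitgeber time in h), over 353 miRNAs. Red frames mark libraries 24 h apart. The framed cells run from 0.958 (ZT6 and ZT30) to 0.986 (ZT18 and ZT42), and the highest value, 0.990, is that of ZT30 and ZT42.

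The same fit asked which miRNAs took a similar level at the same time of day in both cycles, with limited power at 1 library per time and 4 residual degrees of freedom. For time of day, 0 of 353 miRNAs (0%) passed the threshold (moderated F of the same limma fit, smallest adjusted p 0.999), and 3 (0.85%) had p under 0.05 before adjustment. These 3 were miR-182-5p, miR-183-5p and miR-200a-3p, described above. Summed over the miRNAs, time of day took 33.8% of the variance on 4 degrees of freedom, the cycle 20.05% on 1, and the remainder 46.2% on 4. Time of day thus took a smaller share per degree of freedom than the remainder did. Among abundant miRNAs the next smallest p for time of day belonged to let-7f-5p, miR-770-5p, miR-7a-5p, miR-7b-5p, miR-874-3p, miR-148a-3p and miR-143-3p, with unadjusted limma p from 0.0676 to 0.111. miR-148a-3p gave the most regular pattern of these, with 28734, 23459, 14653, 27782 and 17094 in the first cycle and 30587, 25069, 18205, 25526 and 23601 in the second. It was lowest at ZT10 and at ZT34, and time of day took 84.3% of its variance. That share was highest for miR-1298-3p, an Htr2c-intron miRNA, at 92.2%, with 368, 465, 269, 324 and 354 against 456, 475, 292, 325 and 367. Its levels were highest at ZT6 and ZT30 and lowest at ZT10 and ZT34. They spanned only 269 to 475, and the p for time of day was 0.423 (limma moderated F, unadjusted), so the large share is no evidence of a daily rhythm.

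The let-7 family, heterochronic miRNAs that repress Lin28 and many growth genes, showed how unevenly the cycles differed. All 9 tested members had a lower mean in the second cycle, against 236 of all 353. Of the 9, 4 had p under 0.05 before adjustment, against 11.3% of all miRNAs that were lower at that p, and 0 passed the threshold. The median was -0.56, and -0.38 after median-ratio scaling, with 9 of 9 lower on both scales. The summed level was 991087, 856275 and 875238 at ZT2, ZT6 and ZT10, then 377554 and 398386 at ZT14 and ZT18. In the second cycle it was 591873, 419010, 389678, 476573 and 478588, and at ZT22 it was 393509. Thus 3 libraries, the earliest, were high and the others formed a lower range with ZT26 at its top. Beside their partners 9 of 9 members were lower in each of the earliest 3 pairs, but 1 of 9 was lower between ZT14 and ZT38 and 0 of 9 between ZT18 and ZT42. After median-ratio scaling those counts were 7, 9, 9, 0 and 2. let-7b-5p had the smallest p, at 46069, 50936, 58287, 23818 and 21025 against 21628, 19361, 20068, 23345 and 23167 (-0.78 ± 0.27, limma adjusted p = 0.294). let-7e-5p and let-7d-5p had differences of -0.76 ± 0.28 and -0.56 ± 0.24.

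The lin-4 homologues miR-125a-5p and miR-125b-5p, together with miR-99a-5p, miR-99b-5p and miR-100-5p from the same polycistronic clusters as several let-7 genes, lay on the other side. All 5 had a higher mean in the second cycle, against 117 of all 353. Their median was 0.30 (0.47 after median-ratio scaling and 0.07 after quantile normalization), and none had p under 0.05. miR-99a-5p stood at 551647, 366106, 421061, 431554 and 547210 against 542250, 609846, 577039, 566501 and 543226 (0.31 ± 0.16). Second-cycle libraries were close together and the first-cycle libraries spread below and up to them. miR-100-5p was higher in 5 of 5 pairs, at 80391 to 163012 against 149119 to 194410 (0.37 ± 0.19), and miR-99b-5p in 3 of 5 (0.30 ± 0.19). Their summed level was lowest at ZT2 and ZT6 (2995305 and 3045827), where the let-7 sum was among its highest, and lay at 3617638 to 4232949 elsewhere. Levels within a library are shares of a fixed total, so such sums are not independent of each other.

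**Figure D4:**
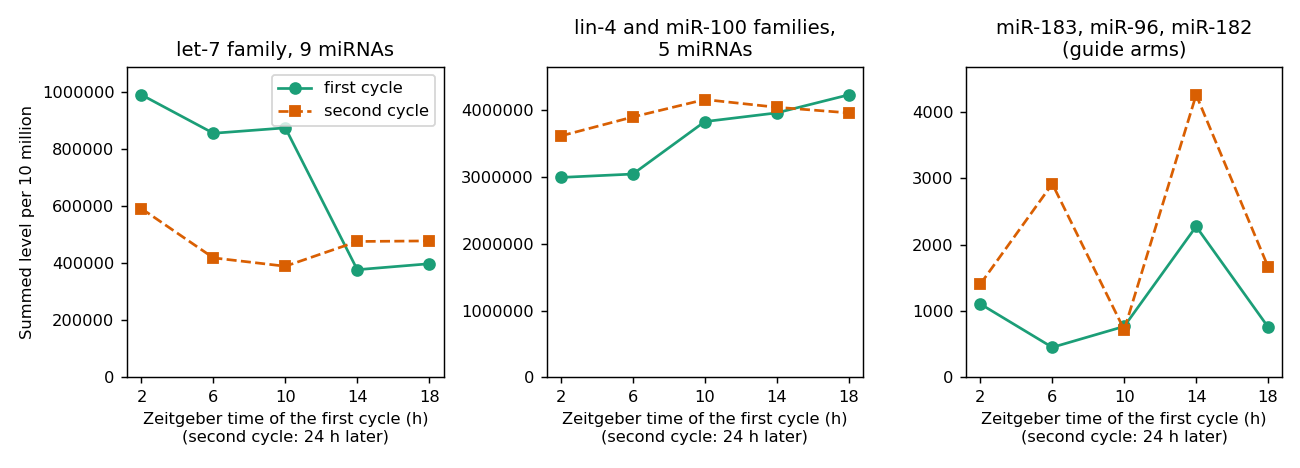
Summed level (vertical axis from 0) of the let-7 family, the lin-4 and miR-100 families and the sensory cluster against zeitgeber time of the first cycle (h), with 1 library per point. In the let-7 panel the first cycle (solid line) stands at 856275 to 991087 until ZT10 and at 377554 to 398386 afterwards, while the second cycle (dashed line) stays at 389678 to 591873.

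Other families also differed by pair. All 4 tested members of the miR-29 family, which represses collagen genes, had a lower mean in the second cycle (median -0.44), against 236 of all 353. Both strands of miR-29c are among them. Only ZT2 with ZT26 (-1.68) and ZT14 with ZT38 (-1.77) gave medians beyond 2-fold, and ZT18 with ZT42 gave 0.74. miR-29a-3p read 60881, 55297, 38694, 52300 and 36206 against 19802, 45014, 39738, 29818 and 43944. Of the 52 tested miRNAs of the Dlk1-Dio3 region, 38 had a lower and 14 a higher mean (29 and 23 after median-ratio scaling), against 236 and 117 of all 353. Of the 52, 6 had p under 0.05 and were lower, near the 11.3% of all miRNAs. The median was -0.23, close to the -0.16 of all 353. Their pair medians ran from -0.68 (ZT26) to 0.08 (ZT42). The 23 clock-linked miRNAs had a median of -0.28 with 13 lower and 10 higher. Of these, 5 had p under 0.05, 4 lower and 1 higher, against 11.3% and 1.98% of all miRNAs, and miR-132-3p, miR-25-3p (-0.97 ± 0.31) and miR-182-5p had the smallest p.

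Neuronal brain miRNAs, 20 in number, had 17 lower and 3 higher means (13 and 7 after median-ratio scaling), against 236 lower and 117 higher of all 353. Their median was -0.24. By pair, from the earliest to the latest, the medians were -1.27, -0.13, 0.29, -0.39 and 0.16, with 18, 14, 8, 14 and 7 of the 20 lower. Both strands of miR-124 and of miR-9, among others, are on the list, so the 20 are not separate observations. miR-218-5p (-0.79 ± 0.30), a motor-neuron and forebrain miRNA, miR-129-5p (-0.70 ± 0.27) and miR-138-2-3p (-1.07 ± 0.43) had the smallest p. The hypothalamic and endocrine list had a median of -0.42 over 12 miRNAs, with 7 lower and 5 higher. The miR-30 family (9 miRNAs) had a median of -0.30, led by miR-30c-5p (-0.39 ± 0.18). The miR-17 to miR-92a clusters (7 miRNAs) and the miRNAs of Htr2c introns (5) had medians of -0.15 and -0.16, which turned to 0.02 for both after median-ratio scaling.

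Marker miRNAs of other cell types were set beside these. The 5 vascular miRNAs all had higher means in the second cycle (median 0.33), against 117 of all 353. Both strands of miR-126 and of miR-145a are among them, so they are not 5 separate observations. They were led by miR-143-3p of smooth muscle, at 38151, 20629, 23960, 31348 and 22472 against 49913, 37097, 29555, 38037 and 30243 (0.45 ± 0.18, limma adjusted p = 0.317). It was higher in 5 of 5 pairs, with overlap between cycles, as was miR-145a-3p (0.50 ± 0.24). The differences of miR-126-3p (0.10 ± 0.23), miR-126-5p (0.25 ± 0.35) and miR-145a-5p (0.33 ± 0.35) were smaller than their SE. In the ZT2 and ZT26 pair 3 of the 5 vascular miRNAs were lower (median -0.46). The summed vascular level was 32356 to 56792 against 40931 to 63314, and the endothelial miR-126-3p lay at 5710 to 13960 against 6486 to 10148. The oligodendrocyte list had a median of 0.26 (4 miRNAs) with summed levels of 13737 to 20212 against 16191 to 20776. The microglia and leukocyte list had a median of 0.17 (4 miRNAs, 3 higher), and its defining miR-223-3p and miR-142-3p were each at 0 in 4 libraries and at most 18 and 25. Erythrocyte miRNAs had a median of -0.01 (4 listings, of which miR-486-5p and miR-3107-5p are nearly the same, turning to 0.16 after median-ratio scaling), muscle miRNAs 0.15 (3) and liver and gut miRNAs -0.31 (3). No miRNA of any list passed the threshold, and the part of other cells in the differences above was not tested.

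**Figure D5:**
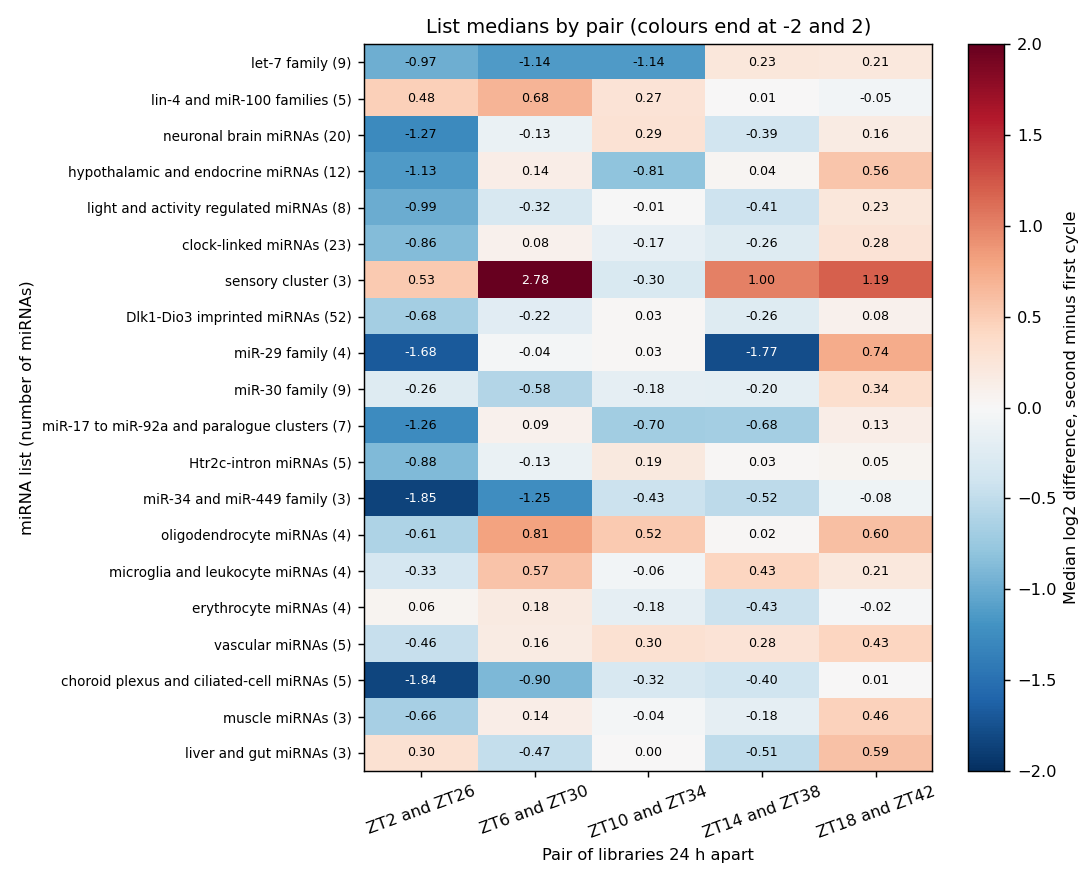
Median log2 difference, second minus first cycle, of 20 miRNA lists (rows, number of miRNAs in brackets) in the 5 pairs of libraries (columns). Blue is lower and red is higher in the second cycle. The ZT2 and ZT26 column is mostly blue, the let-7 row changes from -1.14 to 0.23 between the ZT10 and ZT34 and the ZT14 and ZT38 columns, and most lists differ in sign between columns.

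Against this background some abundant miRNAs kept almost the same step in every pair. miR-383-5p had the smallest SD of pair differences among miRNAs with a mean of at least 5000, 0.06 on the log2 scale. It read 7700, 9964, 8891, 9855 and 9687 against 6694, 8265, 8057, 8026 and 8132, lower by a similar amount each time (-0.23 ± 0.19, limma adjusted p = 0.585). The next steadiest were miR-125b-5p (SD 0.12), miR-34c-5p (0.15), miR-300-3p (0.18) and miR-434-3p (0.19). miR-125b-5p, the most abundant miRNA of the course, read 1148514, 1184831, 1481932, 1399292 and 1586479 against 1194350, 1449841, 1615341, 1493345 and 1533203 (0.10 ± 0.12). Of the other abundant miRNAs, miR-26a-5p (0.05 ± 0.16), miR-127-3p (0.02 ± 0.15), miR-124-3p (0.07 ± 0.17), miR-125a-5p (0.07 ± 0.14) and miR-191-5p (0.11 ± 0.15) had mean differences smaller than their SE, each with pairs of both signs. These are differences not resolved at this number of pairs, not evidence of equal levels.

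The 2 strands of a hairpin gave a further view of the pairs, since they are made from the same precursor. For 84 hairpins both strands were among the 353, and the mean differences had the same sign for 62 of them. With 236 of all 353 mean differences negative and 117 positive, unrelated miRNAs also often share a sign. A matching count for unrelated miRNAs was not made, so the 62 cannot be read as agreement between strands. Across these hairpins the differences of the 2 strands had r of 0.25 (a description over 84 hairpins of shared libraries), and their median gap was 0.32. The widest gaps were those of miR-1839 (-0.25 for the 5p and -1.29 for the 3p strand), miR-221 (0.28 and -0.77), miR-708 (-0.999 and -0.08) and miR-222 (-0.13 and -1.04). Of these strands miR-1839-3p, at 11 to 155, and miR-222-5p, at 28 to 138, were low, so their differences are imprecise. Base composition moved with the difference in some pairs: over 301 miRNAs with a sequence, r between GC content and the difference was 0.16 for ZT2 with ZT26 and -0.36 for ZT18 with ZT42, and -0.12 for the mean of the 5 pairs. In the ZT2 and ZT26 pair the median difference was -1.18 among the miRNAs in the lowest quartile of GC content and -0.40 among those in the highest. Its part in the differences was not tested.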

How the data were processed

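Small RNA was measured in SCN tissue that, per the labels' protocols, was frozen in liquid nitrogen and extracted with Trizol before Illumina library preparation. Bowtie and the build GRCm38 (mm10) are named per the submitters' processing notes, while filters and the miRNA annotation are not given in the sources used here. Each deposited file gives, for every mature miRNA, a signal that the authors had normalized to about 10000000 reads in the library, written in whole numbers that were rounded down, as the low values show. Totals were 10010437 to 10013967.

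Groups and pairs came from the times in the labels. miRNAs missing from a library were set to 0. Levels entered limma 3.58.1 (limma-trend, R 4.3.3) as log2(level + 1), so differences of low levels are understated, with time of day (5 levels) and cycle as terms, 4 residual and 7.48 prior degrees of freedom. Tests were two-sided and adjusted by Benjamini-Hochberg over 353 miRNAs. The same fit was tested on simulated data. Pair differences are log2 ratios of level + 1. The 3-read limits cover counting error only. miR-3107-5p and miR-486-5p were listed with nearly the same values, and miR-199a-3p with miR-199b-3p, let-7a-1-3p with let-7c-2-3p, and miR-466b-3p, miR-466c-3p and miR-466p-3p with identical values. They are uncertain and were tested as separate miRNAs. Hairpin positions and host genes are from GENCODE M21, and sequences from RefSeq.

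The plan held count-based tests, as the main test had the values been counts and otherwise as alternatives on reads recovered from them. The values are not counts, and the recovered reads of none of these 10 libraries passed the check as whole reads. No count-based test was therefore run, and the depths, 3-read limits and counting SDs are approximate. The pairs, the miRNAs and the lists were chosen with earlier results of these data known. Named are the 5 smallest p in each direction, the 10 most abundant miRNAs, the 10 smallest p for time of day and the 3 widest differences per pair and direction (mean of at least 500), the 5 steadiest (mean of at least 5000) and up to 3 miRNAs of each list by p. Others, among them non-overlapping miRNAs, strand partners and seed partners, were named after their values were seen. Alternatives were median-ratio scaling, quantile normalization, a pseudocount of 10, no filter, a minimum of 500, array weights per pair, a 24 h cosine fit and a slope over 11 libraries, a fit with no time-of-day block and each pair left out.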

Additional observations from a re-analysis of the deposited data

Results flagged for a closer look

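With 5 libraries in a cycle, a library was looked at again when its gap to the nearest of the others, divided by the whole range, passed Dixon's limit of 0.71. Of 197 groups of 5 examined 11 did, where chance alone gives about 1 in 20.

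ZT26 was the library in 5 of these within the second cycle. miR-146b-5p stood at 65018 there with the next library at 45055, miR-541-5p at 111965 with the next at 71790 and miR-3107-5p at 13568 with the next at 11110. miR-149-5p was low at 28406 with the next at 50421, and miR-383-5p was low at 6694 with the next at 8026. ZT26 was also the deepest library and had the lowest mean r with the others, though only just (0.967, next ZT10 at 0.968).

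In ZT34, miR-1298-5p was low at 201 (next 261) and miR-30c-2-3p was low at 98 (next 193). In ZT42, miR-151-3p was low at 9893 (next 11319), and 594 miRNAs were listed above 0, with 572 in the next library. In the first cycle miR-369-3p was high at ZT2 with 5910 (next 2652), and miR-133a-3p was high at ZT14 with 221 (next 137).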

How the results depend on the processing

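The 0 miRNAs past the threshold between cycles became 2 with median-ratio scaling (miR-10b-5p and miR-34b-3p), and 1 (miR-10b-5p) each with quantile normalization, with array weights and with no replicate block. It was 0 under each other setting. The cause was not tested. Deviations of paired libraries from their cycle means had r of -0.25 to 0.18 over the miRNAs, below 0 for 4 of the 5 pairs, so the pairing rests on the labelled times alone. At unadjusted p under 0.05 the 47 became 12 to 63 with a pair left out, 12 without ZT6 and ZT30 and 28 without ZT10 and ZT34. For time of day the 3 became 5 (median-ratio), 8 (quantile), 21 (no filter), 13 (cosine) and 1 to 6 with a pair left out: 5 without the pair of ZT2, 6 without that of ZT6, 1 without that of ZT14 and 6 without that of ZT18. A fit chosen after seeing the data, median-ratio scaling without ZT2 and ZT26, gave 0 calls between cycles, 47 at unadjusted p and 6 for time of day. miR-10b-5p was higher under all 15 settings, by 1.32 to 1.80, with limma adjusted p of 0.00598 to 0.565, and miR-34b-3p lower.

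Signs turned for named miRNAs with small mean differences. With median-ratio scaling these were miR-150-5p (0.083), miR-3107-5p (0.16), miR-34c-5p (0.098), miR-369-3p (0.028) and miR-499-5p (0.13). With quantile normalization they were miR-127-3p (-0.13), miR-150-5p (0.043), miR-3107-5p (0.13), miR-34c-5p (0.057), miR-369-3p (0.049) and miR-499-5p (0.16). With array weights they were miR-127-3p (-0.069), miR-369-3p (0.17), miR-499-5p (0.038) and miR-541-5p (-0.034), and in the cosine fit miR-124-3p (-0.003), miR-127-3p (-0.001) and miR-3107-5p (0.044). In the added fit they were miR-127-3p (-0.028), miR-150-5p (0.091), miR-331-3p (0.052), miR-369-3p (0.44), miR-499-5p (0.16) and miR-541-5p (-0.072). Leaving out a pair gave log2 differences of -0.67 to 0.16 for miR-122-5p, -0.019 to 0.21 for miR-124-3p, -0.050 to 0.13 for miR-125a-5p, -0.081 to 0.12 for miR-127-3p, -0.058 to 0.35 for miR-133a-3p, -0.22 to 0.52 for miR-135a-5p, -0.088 to 0.63 for miR-145a-5p, -0.18 to 0.038 for miR-150-5p, -0.11 to 0.58 for miR-15b-5p, -0.055 to 0.18 for miR-26a-5p, -0.79 to 0.13 for miR-29b-3p, -0.26 to 0.43 for miR-3072-3p, -0.35 to 0.28 for miR-3102-3p, -0.17 to 0.049 for miR-3107-5p, -0.061 to 0.52 for miR-335-5p, -0.26 to 0.18 for miR-344d-3-5p, -0.40 to 0.38 for miR-369-3p, -0.14 to 0.47 for miR-374b-5p, -0.45 to 0.11 for miR-499-5p, -0.12 to 0.21 for miR-541-5p, -0.074 to 0.35 for miR-673-5p and -0.092 to 0.39 for miR-874-3p. Of 1406 values for 95 named miRNAs, 1341 kept their direction and call. Since no miRNA was called in the main fit, keeping the call meant staying uncalled. The settings also share their libraries, so this count is no independent check. Count-based tests were not run, since the values are not counts and the recovered reads did not pass the check.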
